A study of Mus musculus with 2 samples.

Results

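The genes described here are 10 members of the VEGF, TIE and apelin pathways, which direct the growth of blood vessels. They are a list of names: the ligands *Vegfa*, *Vegfb* and *Apln*, the receptors *Flt1*, *Kdr*, *Tek*, *Tie1* and *Aplnr*, and the co-receptors *Nrp1* and *Nrp2*. All 10 were found among the 13549 genes of the table. They were measured by bulk RNA sequencing in microglia sorted by flow cytometry from mouse retina at postnatal day 5, an age at which the retinal vessels are still growing. Every animal carried CD11c-Cre-gfp, in which the promoter of CD11c (*Itgax*) drives Cre and GFP, together with Rosa-TDTom, a reporter that Cre switches on for good. The Cd11c-active library came from 4041 GFP+TdTom+ cells, which held GFP made from this promoter at the time of the sort. The Cd11c-lineage library came from 5441 GFP-TdTom+ cells, which carried only the permanent mark. Both were sorted from a pool of 8 retinas, labelled as 4 female and 4 male, and each group gave 1 library, so no difference below has a replicate check and no test between conditions was possible.

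Vascular endothelial growth factors are secreted proteins that bind receptor tyrosine kinases on endothelial cells. Vegfa acts mainly through Kdr (VEGF receptor 2), while Flt1 (VEGF receptor 1) binds Vegfa and Vegfb with little signalling of its own and also exists as a soluble decoy. Neuropilins hold VEGF on the cell surface beside Kdr and are used as well by class 3 semaphorins. Tek (Tie2) is the receptor of the angiopoietins, Tie1 is its partner with no established ligand, and Aplnr is the G protein-coupled receptor of the peptide apelin (*Apln*), which endothelial tip cells of growing sprouts secrete. In the newborn retina astrocytes are the main source of Vegfa for the spreading vessel front, and microglia lie close to the tip cells where sprouts meet.

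The libraries held 12943998 and 13402625 reads for Cd11c-active and Cd11c-lineage. Levels are given as CPM, the reads scaled to a common library size with TMM factors, and ratios as the log2 of Cd11c-active over Cd11c-lineage. Where a gene had 0 reads the limit was taken as 3 reads, which is 0.243 CPM in Cd11c-active and 0.214 CPM in Cd11c-lineage. In 1978 genes found in both libraries, with a total from 800 to under 1600 reads, the log2 ratio varied 80.3 times as much as counting allows. With 1 library per group, spread between libraries and differences between the cell groups cannot be told apart in this value. Each value is therefore given with a 95% counting interval or bound and with a widened interval, made from reads divided by 80.3. All 14 microglia markers had reads in both libraries, with summed levels of 24809 and 23492 CPM, and none differed by 2-fold. *Itgax* itself had 195 CPM in Cd11c-active and 121 CPM in Cd11c-lineage (log2 ratio 0.69, widened interval -0.15 to 1.58).

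Of the 10 genes, 6 were at least 2-fold higher in Cd11c-active: *Apln* and all 5 receptors. Of the 13037 genes with at least 20 reads, 23.3% were that much higher. *Vegfa* was the 1 gene at least 2-fold lower, against 21.6% of all genes. *Vegfb*, *Nrp1* and *Nrp2* differed by less than 2-fold. The widened interval lay above 0 for the same 6 genes, against 2.17% of all genes, and below 0 for none of the 10, against 0.92% of all genes.

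**Figure D1:**
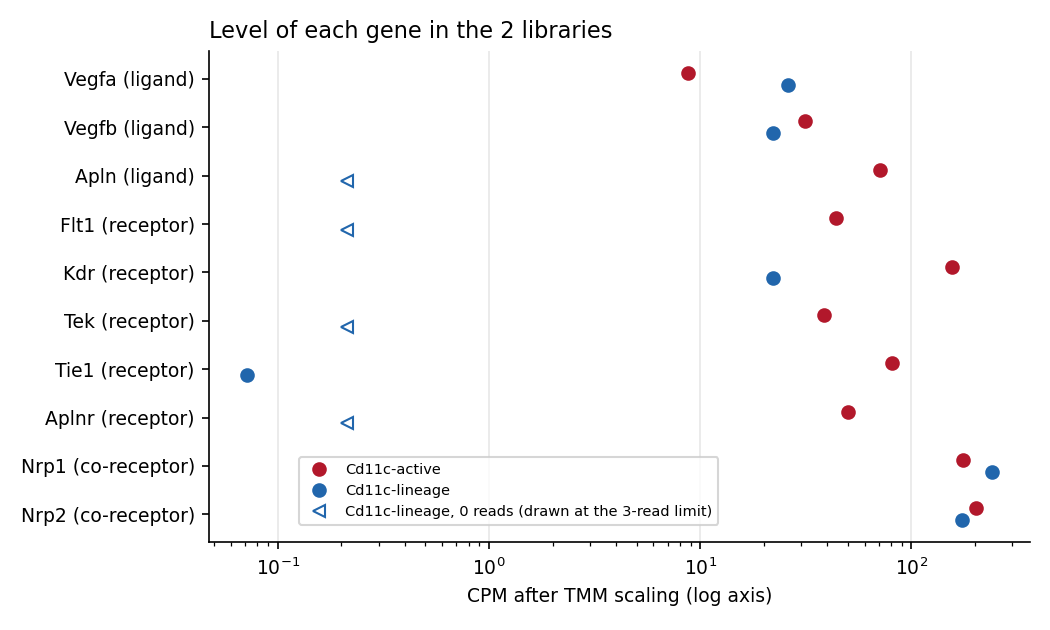
CPM of each gene (log axis) in the Cd11c-active library (red) and the Cd11c-lineage library (blue), with 1 library per group and no error bars; open triangles mark 0 reads, drawn at the 3-read limit of 0.214 CPM. *Apln* and the 5 receptors had 38.6 to 156 CPM in Cd11c-active and at most 22.1 CPM in Cd11c-lineage, while *Nrp1* and *Nrp2* lay at 173 to 242 CPM in both; the single read of *Tie1* in Cd11c-lineage lies below the limit drawn for 0 reads.

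Among the ligands, *Vegfa* (ENSMUSG00000023951), the factor that guides vessel sprouts, had 108 Cd11c-active reads (8.75 CPM) and 365 Cd11c-lineage reads (26.0 CPM). It was thus present in both libraries and 2.97-fold higher in Cd11c-lineage on the level scale. The log2 ratio was -1.57, with a counting interval of -1.89 to -1.26. The widened interval ran from -7.70 to 1.02 and included 0. In the same range, from 400 to under 800 reads, 16.7% of all genes were at least 2-fold lower in Cd11c-active. Of the retinal neuron markers, 5 of the 9 with at least 20 reads were at least 2-fold lower in Cd11c-active and 1 was higher, against 21.6% and 23.3% of all genes. None of the 9 had a widened interval that left out 0, and their summed level was 72.7 CPM against 148 CPM. The photoreceptor factor *Crx* had 87 reads against 435, and *Snap25*, of synaptic release, had 60 against 414. Markers of astrocytes and Muller glia were mixed. The glutamate transporter *Slc1a3* had 73 reads against 642, the retinoid-binding *Rlbp1* 94 against 0 and the transcription factor *Sox9* 43 against 18, while *Glul*, glutamine synthetase, had a log2 ratio of -0.07. Of 10 markers chosen for astrocytes and Muller glia, only these 4 were found among the genes with counts. *Gfap*, *Pax2* and *Pdgfra* were not among the 4 and have no values here. The part of these cells in the *Vegfa* values was not tested. In bulk libraries, fewer cells of a type and less RNA per cell cannot be told apart.

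*Vegfb* (ENSMUSG00000024962), a ligand of Flt1 and neuropilin 1 with weak effects on sprouting, had 387 Cd11c-active reads (31.3 CPM) and 312 Cd11c-lineage reads (22.2 CPM). The levels were close, and the log2 ratio was 0.50, between 0.28 and 0.72 by counting. Its widened interval of -1.71 to 2.84 included 0. *Apln* (ENSMUSG00000037010), the precursor of apelin, had 872 reads in Cd11c-active, or 70.6 CPM, and 0 reads in Cd11c-lineage. It was high in Cd11c-active and at the limit of detection in Cd11c-lineage, at least 331-fold higher by the 3-read limit. The 872 reads count as 11 after division by 80.3, and the lower end of the widened interval was 2.86-fold. Genes with 0 reads in Cd11c-lineage made up 0.252% of those with 800 to under 1600 reads.

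*Kdr* (ENSMUSG00000062960), the main signalling receptor of Vegfa, had more reads than any other of the 5 receptors. Cd11c-active held 1926 of them (156 CPM) and Cd11c-lineage 311 (22.1 CPM). It was thus found in both libraries and 7.05-fold higher in Cd11c-active (log2 ratio 2.82, counting interval 2.64 to 2.99). The widened interval was 1.23 to 4.76 and did not include 0. Of all genes with 1600 to under 3200 reads, 4.82% were at least 2-fold higher in Cd11c-active. In the authors' deposited table the log2 fold change of *Kdr* is 2.68.

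*Flt1* (ENSMUSG00000029648) had 543 reads in Cd11c-active, or 44.0 CPM, and 0 in Cd11c-lineage. The receptor was detected in Cd11c-active and not in Cd11c-lineage, at least 206-fold higher by the 3-read limit. The lower end of its widened interval was 1.64-fold. Counts per gene do not separate the soluble form from the membrane-bound one.

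*Tek* (ENSMUSG00000006386), the angiopoietin receptor, had 477 reads in Cd11c-active, or 38.6 CPM, and 0 in Cd11c-lineage. It was at least 181-fold higher in Cd11c-active by the 3-read limit, and the lower end of the widened interval was 1.34-fold. Of the 6 genes whose widened interval lay above 0, *Tek* was the one nearest to including it. *Tie1* (ENSMUSG00000033191), which pairs with Tek at the cell surface, had 1004 Cd11c-active reads (81.3 CPM) and 1 Cd11c-lineage read (0.0712 CPM). The ratio was 1143-fold with a counting interval of 205 to 45174, so with a single read its size is not known closely. The lower end of the widened interval was 3.47-fold, and 0.353% of the genes with 800 to under 1600 reads had at most 1 read in Cd11c-lineage. *Aplnr* (ENSMUSG00000044338), the receptor for apelin, had 615 reads in Cd11c-active, or 49.8 CPM, and 0 in Cd11c-lineage. Receptor and ligand thus shared the same pattern, with *Aplnr* at least 233-fold higher in Cd11c-active and a widened lower end of 1.94-fold. Genes with 0 reads in Cd11c-lineage made up 1.14% of those with 400 to under 800 reads, the range of *Flt1*, *Tek* and *Aplnr*. The 3-read limit takes the Cd11c-active reads as exact, and the lower ends of the 95% counting intervals were 268-fold for *Apln*, 167-fold for *Flt1*, 147-fold for *Tek* and 189-fold for *Aplnr*.

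**Figure D2:**
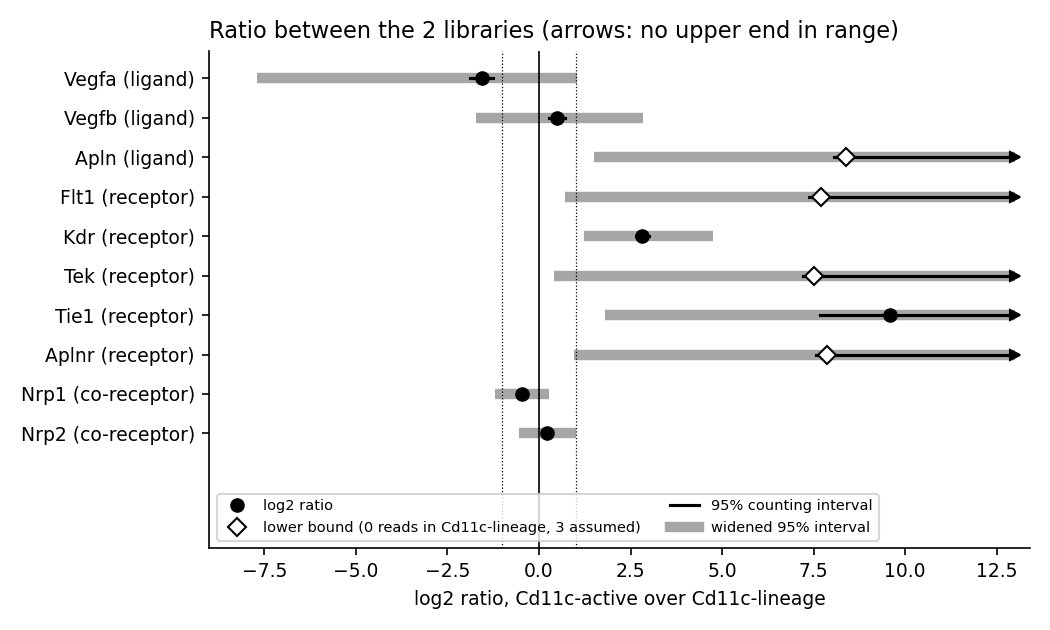
Log2 ratio of each gene, Cd11c-active over Cd11c-lineage (1 library each); filled circles are ratios, open diamonds are lower bounds for genes with 0 reads in Cd11c-lineage, thin black lines are 95% counting intervals, grey bars are widened intervals and arrows run beyond the axis. The grey bars of *Apln*, *Flt1*, *Kdr*, *Tek*, *Tie1* and *Aplnr* lie above 0, and those of *Vegfa*, *Vegfb*, *Nrp1* and *Nrp2* cross it.

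The promoters of the genes with at most 1 read in Cd11c-lineage are shown because these genes stood together in the comparison. The letters are the 250 bases before the start of transcription, from RefSeq on GRCm38.p6. RefSeq windows matched 9 of the 10 genes, and *Aplnr* had no match. Capitals mark GGAAG or its reverse complement CTTCC, the core bound by ETS factors with its flank, on which many endothelial genes depend.

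Apln, chrX:48034854-48035103, minus strand: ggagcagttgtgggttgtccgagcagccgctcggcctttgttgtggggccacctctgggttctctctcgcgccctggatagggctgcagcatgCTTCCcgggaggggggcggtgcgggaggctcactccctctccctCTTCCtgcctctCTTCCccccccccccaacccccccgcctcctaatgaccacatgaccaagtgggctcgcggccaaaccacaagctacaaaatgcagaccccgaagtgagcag
Flt1, chr5:147726012-147726261, minus strand: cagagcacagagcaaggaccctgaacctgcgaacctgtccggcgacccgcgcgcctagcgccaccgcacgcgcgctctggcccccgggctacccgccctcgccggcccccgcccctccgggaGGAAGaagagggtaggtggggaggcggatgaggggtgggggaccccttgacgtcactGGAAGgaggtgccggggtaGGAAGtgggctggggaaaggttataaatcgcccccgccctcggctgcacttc
Tie1, chr4:118489850-118490099, minus strand: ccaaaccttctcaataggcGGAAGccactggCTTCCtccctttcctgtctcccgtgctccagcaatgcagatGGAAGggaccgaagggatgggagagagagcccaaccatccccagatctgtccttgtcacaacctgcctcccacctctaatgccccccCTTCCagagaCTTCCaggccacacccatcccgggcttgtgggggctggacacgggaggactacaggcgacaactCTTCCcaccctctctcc
Tek, chr4:94739039-94739288, plus strand: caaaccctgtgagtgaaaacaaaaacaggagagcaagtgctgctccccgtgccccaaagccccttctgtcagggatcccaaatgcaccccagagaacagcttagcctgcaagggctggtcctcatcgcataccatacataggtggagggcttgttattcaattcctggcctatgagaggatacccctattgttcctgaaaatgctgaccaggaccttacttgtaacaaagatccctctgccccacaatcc

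*Tie1* held 6 matches, *Flt1* and *Apln* held 3 each, and *Tek* held 0. At least 3 matches were found in 10.7% of all 32851 windows of this length, and at least 1 in 64.1%. *Nrp1*, whose level did not differ by 2-fold, also held 3, and *Kdr* held 1. The core of the hypoxia response element, ACGTG or its reverse complement CACGT, was found in 1 of the 10 windows of these genes, the downstream of the windows of *Vegfa*, and in 16.6% of all windows. A match describes letters only, and the absence of one says nothing about sites outside the window.

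The co-receptors stood apart from the receptors by their even levels. *Nrp1* (ENSMUSG00000025810), a co-receptor for Vegfa that macrophages also carry, had 2156 Cd11c-active reads (175 CPM) and 3398 Cd11c-lineage reads (242 CPM). It was somewhat lower in Cd11c-active, with a log2 ratio of -0.47 and a counting interval of -0.55 to -0.39. The widened interval, -1.21 to 0.28, included 0. *Nrp2* (ENSMUSG00000025969), which binds Vegfc and semaphorins as well as Vegfa, had 2494 and 2436 reads, which is 202 and 173 CPM. Its log2 ratio was 0.22, from 0.14 to 0.30 by counting and from -0.54 to 1.01 when widened, and 0.08 in the authors' deposited table. These were the best measured of the 10 genes, in a range where 3.28% of all genes differed by at least 2-fold.

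How much the number of reads sets these shares is seen in the plot of all genes by read range. Of genes with 20 to under 50 reads, 97.1% were at least 2-fold apart in one or the other direction, and 49.3% had 0 reads in Cd11c-lineage. From 400 to under 800 reads, where 5 of the 10 genes lie, 39.2% were 2-fold apart.

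**Figure D3:**
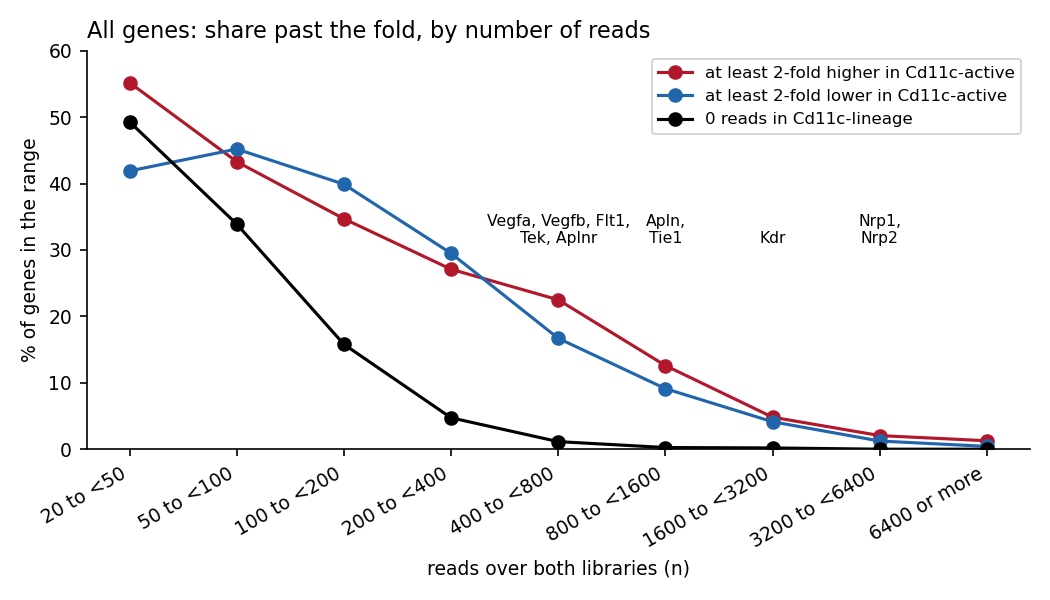
Share of all genes (%) at least 2-fold higher (red) or lower (blue) in Cd11c-active, or with 0 reads in Cd11c-lineage (black), by reads over both libraries; gene names stand over the range each gene falls in. Genes with 0 reads in Cd11c-lineage made up 49.3% of the lowest range and 1.14% of the range of *Flt1*, *Tek* and *Aplnr*.

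Levels of different genes were compared per kilobase of exonic length. In Cd11c-active they ran from 22.4 CPM per kilobase for *Apln* through *Vegfb* (19.5), *Nrp1* (17.8), *Kdr* (17.3), *Nrp2* (17.1), *Tie1* (16.5), *Aplnr* (13.5) and *Tek* (8.20) to *Flt1* (3.26) and *Vegfa* (2.04). The widened intervals of all neighbours in this order overlapped. With the longest transcript as the length, *Nrp1* came first at 47.9 CPM per kilobase and *Apln* in place 5, while the last 5 places were unchanged. In Cd11c-lineage *Nrp1* led with 24.7 CPM per kilobase, followed by *Nrp2* (14.6), *Vegfb* (13.8), *Vegfa* (6.06) and *Kdr* (2.45), and the other 5 genes lay at 0 to 0.0145. That order was the same with the longest transcript, and the widened intervals of neighbours overlapped again. The level of *Nrp1* was 1.03 times that of *Kdr* in Cd11c-active and 10.1 times in Cd11c-lineage, and with the longest transcript it was 1.82 and 17.8 times. The microglial receptor *Csf1r*, at 1109 and 1139.5 CPM per kilobase, lay far above all 10 genes in both libraries.

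Of 11 other genes of the same pathways, 4 had at least 20 reads, and 3 of these were at least 2-fold higher in Cd11c-active, against 23.3% of all genes, with a list median log2 ratio of 3.82 against 0.005 over all genes tested (0-read genes at their bound). The 1 with a widened interval above 0, against 2.17% of all genes, was *Ptprb*, a phosphatase that restrains Tek and Kdr. It had 570 reads against 28, a log2 ratio of 4.51 with a widened lower end of 0.71. *Flt4*, the receptor for Vegfc, had 238 reads against 153, or 19.3 and 10.9 CPM, a difference under 2-fold. The Tek ligand *Angpt2*, made by tip cells, had 23 reads against 0, in a range where 49.3% of all genes had 0 reads in Cd11c-lineage and 55.2% were at least 2-fold higher in Cd11c-active.

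Of 14 tip cell and Notch genes with at least 20 reads, 9 were at least 2-fold higher in Cd11c-active and 1 lower, against 23.3% and 21.6% of all genes, with a median log2 ratio of 1.48. The widened interval lay above 0 for 3 (2.17% of all genes), *Notch4*, *Unc5b* and *Plxnd1*. *Notch4*, an endothelial Notch receptor, had 1024 and 149 reads (log2 ratio 2.96). *Unc5b*, a netrin receptor of tip cells, had 455 and 0 reads, at least 173-fold higher by the 3-read limit. Its lower ends on the log2 scale were 7.13 by counting and 0.42 when widened. *Plxnd1*, a semaphorin receptor of vessels, had 2874 and 1307 reads (log2 ratio 1.32). The lower gene was *Cxcr4*, a chemokine receptor of tip cells and leukocytes, with 203 and 714 reads, and its widened interval of -3.92 to 0.60 included 0. The tip cell marker *Esm1* had 46 reads against 0. *Cd34* and *Notch1*, the list members with the most reads, had log2 ratios of 0.27 and 0.15.

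Semaphorins and plexins, which share the neuropilins with VEGF, were measured in 8 genes. Of these, 5 were at least 2-fold lower in Cd11c-active, against 21.6% of all genes, and 0 were higher, with a median log2 ratio of -1.38. None had a widened interval that left out 0. *Sema3a* and *Sema3b*, secreted ligands of the neuropilins, had 0 reads in Cd11c-active and 103 and 144 in Cd11c-lineage, in a range where 39.9% of all genes were at least 2-fold lower in Cd11c-active and 22.2% had 0 reads there. The plexin with the most reads, *Plxna4*, had 2771 against 2699. *Gipc1*, an adaptor that binds neuropilin 1, had 986 against 584.

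Of 25 genes that carry the signal inside the cell, 20 differed by less than 2-fold and 5 were higher in Cd11c-active, a share near the 23.3% of all genes, and the median log2 ratio was 0.09. The widened interval lay above 0 for 2 of the 25, against 2.17% of all genes. These were the kinases *Map2k2* (log2 ratio 1.40, widened lower end 0.12) and *Mapk3* (1.08, widened lower end 0.09). The widened interval lay below 0 for 1, against 0.92% of all genes, *Pik3r1*, a regulatory subunit of PI3-kinase, at a log2 ratio of -0.91. *Nos3*, the endothelial nitric oxide synthase, had 254 reads against 0, with a widened interval that included equal levels. The small GTPases *Rac1* and *Cdc42*, with the most reads of the list, had log2 ratios of 0.49 and 0.09. Most of this machinery is shared by microglia and endothelial cells.

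Of the 8 genes that set *Vegfa* by oxygen, 1 was at least 2-fold higher in Cd11c-active and 1 lower, where 44.9% of all genes differed by that much, with a median log2 ratio of -0.39. *Hif1a*, the general hypoxia factor, had 2689 and 2735 reads (log2 ratio 0.16), and its partner *Arnt* had 1078 and 1877 (-0.61). *Epas1*, an endothelial relative of *Hif1a*, had 1038 reads against 0, at least 394-fold higher in Cd11c-active, with a widened lower end of 1.79 on the log2 scale. *Egln3*, a hypoxia-induced oxygen sensor, had 102 reads against 370, close to the pattern of *Vegfa*, and its widened interval of -7.70 to 1.02 included 0.

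Of 13 vessel growth factors that macrophages can make, 2 were at least 2-fold higher and 3 lower in Cd11c-active, 5 in all, where 44.9% of all genes differed by that much, and the median log2 ratio was 0.04. The higher ones were the chemokine *Cxcl12* (51 reads against 0) and the growth factor *Hbegf* (22 against 0). The lower ones were the growth factors *Fgf2* (0 against 107) and *Hgf* (213 against 498) and the protease *Mmp9* (0 against 81), and none of the 5 had a widened interval that left out 0. *Pdgfb*, which recruits pericytes, had 1894 and 2135 reads (log2 ratio 0.01), and *Igf1* had 1526 and 2062 (-0.25). *Tgfb1* had 2995 and 1783 reads, and its log2 ratio of 0.93 had a widened interval of 0.14 to 1.77. *Grn*, the gene of progranulin, had a log2 ratio of 0.26 with a widened interval of 0.08 to 0.44, so 2 of the 13 had one above 0, against 2.17% of all genes. *Tnf* had a log2 ratio of 0.45, and its widened interval of -0.24 to 1.19 included 0.

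The plot of list members places these groups beside markers of the cell types the sort could hold. Of 18 endothelial markers, 15 were at least 2-fold higher in Cd11c-active and 0 lower, against 23.3% and 21.6% of all genes, with a median log2 ratio of 6.30. The summed level was 1300 CPM in Cd11c-active and 339 CPM in Cd11c-lineage. In Cd11c-lineage 10 of the 18 had 0 reads, against 10.6% of all genes, among them the junction protein gene *Cldn5*, the transcription factor *Erg*, and *Emcn*, *Plvap* and *Vwf*, while *Egfl7* had 1. *Pecam1* had 523 reads there, *Cdh5* 201 and *Cd93* 100, against 1725, 1719 and 3986 in Cd11c-active. Their log2 ratios of 1.91, 3.28 and 5.50 stand beside 2.82 for *Kdr*. Per kilobase, *Kdr* was 0.52 times *Cdh5* in Cd11c-active and 0.72 times in Cd11c-lineage, but 0.77 and 0.41 times *Pecam1*, and *Tie1* was 0.50 and 0.0043 times *Cdh5*. *Esam*, *Mmrn2* and *Podxl*, of endothelial junctions, matrix and surface, had 592, 439 and 703 reads against 0, 0 and 37. The widened interval lay above 0 for 8 of the 18, against 2.17% of all genes, namely these 3, *Pecam1*, *Cdh5*, *Cd93*, *Cldn5* and *Vwf*. *Eng*, *Ecscr* and *Ets1* differed by less than 2-fold. Of 6 pericyte and mural markers with at least 20 reads, 4 were at least 2-fold higher in Cd11c-active and 2 lower, against 23.3% and 21.6% of all genes. For 1, *Cspg4*, the widened interval lay above 0, against 2.17% of all genes. Below 50 reads, where 3 of the 6 lie, 97.1% of all genes were 2-fold apart. *Cspg4* had 380 reads, *Rgs5* 253, *Pdgfrb* 92 and *Abcc9* 38 in Cd11c-active, each with 0 in Cd11c-lineage. *Notch3* and *Tagln* ran the opposite way, with 0 reads against 31 and 24. The part of endothelial and mural RNA in the values of *Apln* and the 5 receptors was not tested.

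**Figure D4:**
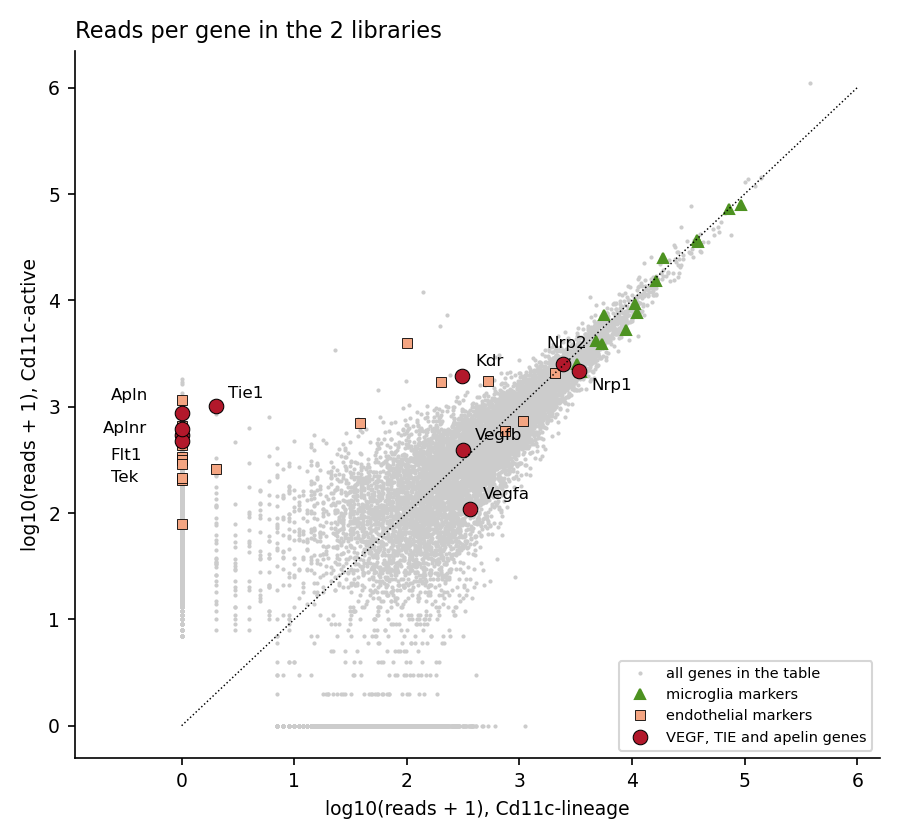
Reads per gene in Cd11c-lineage (x) and Cd11c-active (y), as log10 of reads plus 1, for all 13549 genes (grey), microglia markers (green), endothelial markers (orange) and the 10 VEGF, TIE and apelin genes (red); the dotted line marks equal reads. *Apln*, *Aplnr*, *Flt1*, *Tek* and *Tie1* lie at the left edge with most endothelial markers, and *Nrp1* and *Nrp2* lie near the line.

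Border macrophage markers were mostly lower in Cd11c-active: 4 of 5 by at least 2-fold, against 21.6% of all genes, with summed levels of 36.4 and 140 CPM. Of the 5, 1 had a widened interval below 0, against 0.92% of all genes. *Cd163* and *Lyve1* lie in a range where 39.9% of all genes were 2-fold lower, and *F13a1* (0 reads against 254) in one where 29.5% were. The mannose receptor *Mrc1* had 262 reads against 1230 (log2 ratio -2.04, widened -4.57 to -0.31), and *Folr2* had 188 against 168. *Itga2b*, a platelet and megakaryocyte integrin, had 0 reads against 262, and the globin *Hbb-bt* 0 against 31. The widened interval of *Itga2b* included 0, with an upper end of 1.46. In the read ranges of *Itga2b* and *Hbb-bt*, 5.33% and 38.2% of all genes had 0 reads in Cd11c-active.

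**Figure D5:**
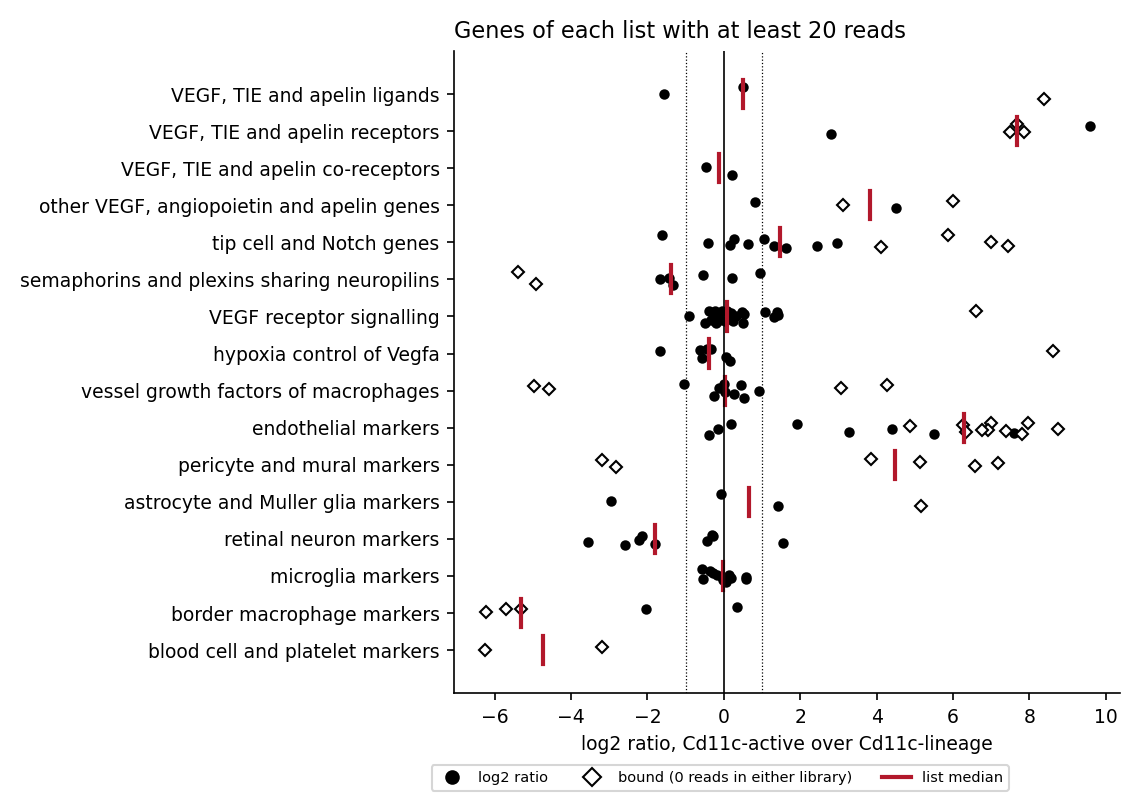
Log2 ratio, Cd11c-active over Cd11c-lineage, of every gene with at least 20 reads in each list (filled circles; open diamonds are bounds for genes with 0 reads in either library; red bars are list medians; dotted lines mark 2-fold). The receptor median lies at 7.69 and the endothelial marker median at 6.30, while the microglia markers lie within 1 of 0, with a median of -0.02.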

How the data were processed

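Per the file headers, the deposited counts are raw reads per gene, 1 column for each library, and the smallest sum of both is 6. The submitters' processing notes name cutadapt 3.5, STAR 2.7.9a, featureCounts 1.6.3, edgeR 4.0.16 and GRCm39. The annotation, the strand setting and the handling of duplicates are not given in the sources used here. The same table holds the authors' own log2 fold change and log2 mean CPM, and the fold change is quoted where named. Columns of unmapped samples numbered 0.

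Reads were scaled with TMM in edgeR 4.0.16 (factors 0.954 and 1.05). Log2 ratios used reads plus 0.5. The folds given for single genes and the Clopper-Pearson 95% intervals used reads without it. Neither edgeR's quasi-likelihood test nor DESeq2's could be fitted to 1 library a group. A gene counted as higher or lower from a log2 ratio of 1 in size, given 20 or more reads. Widened intervals used reads divided by the overdispersion of 80.3 and rounded; the overdispersion is the squared robust SD of the log2 ratio over its median counting variance. They take the typical gene as equal and are not adjusted for the number of genes. Counting intervals and read limits cover counting error only, since reads carry no molecular identifiers. Exonic lengths came from GENCODE M21 (99.6% of genes matched); as that annotation is on GRCm38, it gave no coordinates of genes. On simulated data with 50 reads per fragment and 11632 genes, the widened interval held the true ratio in 98.9% of genes and left out 0 for 34.4% of those changed 4-fold, so a gene whose interval includes 0 is not shown to be equal.

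The 10 genes, the lists and the tests were chosen with earlier results of these data known. Named genes are the 10, listed genes past 2-fold whose widened interval leaves out 0, the 2 with the most reads in a list, and *Itgax*; others were named after their values were seen. A gene that this rule names is not reported here. R 4.3.3, DESeq2 1.42.0, Python 3.11.15, numpy 2.4.6, scipy 1.17.1, pandas 2.3.3 and matplotlib 3.10.9 were used.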

Additional observations from a re-analysis of the deposited data

How the results depend on the processing

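Each value was recomputed with library totals, DESeq2 median of ratios, scaling to the microglia markers, and ribosomal and mitochondrial genes left out; library totals lower every log2 ratio by 0.14. Under these 4 scalings, and with a prior count of 5 for genes with reads in both libraries, none of the 10 genes changed direction, and 42 of 46 values stayed within their counting interval (bounds: within 1 on the log2 scale). The 4 that did not were *Nrp1* (-0.61 with library totals, -0.55 with microglia markers), *Nrp2* (0.08 with library totals) and *Tie1* (7.58 with a prior count of 5). The count of 6 genes at least 2-fold higher held under all 4 scalings, with no read minimum, with a minimum of 200 reads and at a log2 ratio of at least 2, and so did the 6 widened intervals above 0 with the overdispersion taken from other read ranges (69.7 and 104.0). The count of 1 gene at least 2-fold lower became 0 at a log2 ratio of at least 2. With a minimum of 1000 reads, added after seeing the data, the counts were 2 higher (*Kdr* and *Tie1*) and 0 lower, since fewer of the 10 genes have that many reads. The share of all genes at least 2-fold higher was 14.1% with a minimum of 200 reads and 5.43% with 1000, and that of genes lower was 12.2% and 4.14%. The summed endothelial markers had a log2 ratio of 1.94, which was 1.80 with library totals, 1.86 with microglia markers and 2.56 without *Ets1*, the member with the most reads. Levels per kilobase with the longest transcript were also added after seeing the data. No paired analysis was possible because each group has 1 library; for the same reason no library could be left out.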
